A study of Mus musculus with 2 samples.

Results

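Binding of the transcription factor Myb was examined at 10 genes of histone methylation that are linked to leukemia: the Kmt2 family (Kmt2a, Kmt2b, Kmt2c, Kmt2d and Kmt2e), Men1, Dot1l, Setd2, Nsd1 and Nsd2. The genes were chosen by name, with earlier results of these data known. A Myb peak was assigned to a gene when its summit lay in the gene body or within 20 kb of it in the GENCODE vM21 annotation. By this rule 66 of the 25793 Myb peaks in the list belonged to the 10 genes, and no peak was shared between members. ChIP-Seq was performed with an antibody against Myb and with rabbit IgG in bone marrow cells depleted of mature lineages (Lin-), taken from WT mice, with 1 library of each kind. In the study's methods WT denotes Ep300 fl/fl mice that carry no Cre. The study injected its mice with poly(I:C), but whether these ChIP-Seq mice had been injected, their age and the number of animals behind the chromatin are not given in the labels. The Lin- cells had a purity above 80%, so mature cells could make up part of the sample. Without a second Myb library, no value below carries an estimate of the variation between mice, and no test between groups was possible.

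Methylation of histone H3 on lysine 4 marks promoters and enhancers. Kmt2a, Kmt2b, Kmt2c and Kmt2d place it as parts of large complexes that share the same core subunits. Dot1l methylates lysine 79 in the bodies of transcribed genes, and Setd2, Nsd1 and Nsd2 methylate lysine 36. Several of these genes are altered in blood cancers: KMT2A is broken and fused to other genes in acute leukemia, where the fusion proteins act through Menin and DOT1L. NSD1 is fused to NUP98 in childhood acute myeloid leukemia, and SETD2 and KMT2D lose function in leukemia and lymphoma. Myb is required for definitive hematopoiesis and recruits the coactivator p300.

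All 10 genes had at least 1 peak by the 20 kb rule, against 58.6% of the 21938 protein-coding genes. All 10 also had a promoter peak, defined by a summit within 3 kb of any annotated start site of the gene, against 39.9% of protein-coding genes. The strongest of these lay at Kmt2e and Setd2, and the weakest at Nsd2. The Myb motif was found at few of the summits, and sequences at the summits are printed below.

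The sequences under the strongest promoter summit are given for the 8 genes where that window holds no UTR, to show what the letters at the promoter summits are. Each is the plus strand of mm10 from 50 bp before to 50 bp after the summit, read from the GRCm38 genome. Capitals mark the ETS letters (AGGAAA or AGGAAG or CGGAAA or CGGAAG) and the SP/KLF letters (GGGCGG), on either strand.
Kmt2a, chr9:44881983-44882083: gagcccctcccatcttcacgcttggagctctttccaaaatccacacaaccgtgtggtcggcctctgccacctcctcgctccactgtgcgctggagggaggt
Kmt2b, chr7:30573204-30573304: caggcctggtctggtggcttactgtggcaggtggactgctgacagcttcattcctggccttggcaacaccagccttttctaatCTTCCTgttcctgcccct
Kmt2c, chr5:25499217-25499317: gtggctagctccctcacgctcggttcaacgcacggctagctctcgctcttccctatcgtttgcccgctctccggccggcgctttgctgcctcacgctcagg
Kmt2d, chr15:98872073-98872173: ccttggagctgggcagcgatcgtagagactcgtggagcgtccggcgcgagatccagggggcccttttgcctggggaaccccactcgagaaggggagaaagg
Kmt2e, chr5:23433184-23433284: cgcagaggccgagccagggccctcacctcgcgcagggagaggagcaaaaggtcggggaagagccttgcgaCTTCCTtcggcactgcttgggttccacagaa
Dot1l, chr10:80754974-80755074: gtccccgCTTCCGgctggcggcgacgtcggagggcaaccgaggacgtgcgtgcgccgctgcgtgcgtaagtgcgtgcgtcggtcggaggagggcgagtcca
Setd2, chr9:110532847-110532947: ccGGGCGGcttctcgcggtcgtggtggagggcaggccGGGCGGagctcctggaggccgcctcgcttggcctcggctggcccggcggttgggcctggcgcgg
Nsd2, chr5:33822575-33822675: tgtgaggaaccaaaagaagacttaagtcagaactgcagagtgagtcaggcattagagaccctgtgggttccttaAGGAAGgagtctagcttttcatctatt
None of the 8 windows held the Myb motif, which was taken as CAACGG or CAACTG or TAACGG or TAACTG on either strand. Over the list, 14.7% of all peaks at promoters held it, so its absence from 8 windows says little by itself. Setd2 had the SP/KLF letters 2 times, in a window with 14 CpG dinucleotides and a GC content of 80.2%. Dot1l had 18 CpG dinucleotides and an ETS match at its left end. Kmt2e had 1 ETS match and 7 CpG dinucleotides. The windows of Kmt2a, Kmt2c and Kmt2d held neither kind of letters, at a GC content of 61.4%, 65.3% and 65.3%. Kmt2b and Nsd2 differed from the rest in base composition, with 0 CpG dinucleotides and a GC content of 56.4% and 43.6%. They had 1 ETS match each, as Kmt2e and Dot1l did.

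The Myb motif lay within 50 bp of the summit in 3 of the 66 peaks. These sequences are given in the same way, with the Myb motif in capitals. The window at Kmt2b overlaps a UTR of the neighboring gene Psenen and is reduced to 30 bases.
Kmt2e, upstream peak, chr5:23416237-23416337: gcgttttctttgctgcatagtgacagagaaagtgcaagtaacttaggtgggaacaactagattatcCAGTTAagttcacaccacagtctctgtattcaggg
Nsd1, promoter peak, chr13:55209018-55209118: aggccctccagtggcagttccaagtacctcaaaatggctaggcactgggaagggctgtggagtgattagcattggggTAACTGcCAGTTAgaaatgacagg
Kmt2b, downstream peak, chr7:30563523-30563552: ctcttccagggtTAACTGctctttttactt
The Kmt2e peak lay 18154 bp upstream of the gene start, with a fold enrichment of 3.90. The Nsd1 peak lay 714 bp upstream of the gene start, with a fold enrichment of 3.08, and held the motif on both strands with a single base between the copies. The Kmt2b peak lay past the end of that gene, 108 bp from the start of Psenen, a subunit of gamma-secretase, and had a fold enrichment of 5.35. That Kmt2b peak was the strongest of the 6 peaks assigned to Kmt2b, though not a promoter peak of it. The Kmt2e peak was not a promoter peak of Kmt2e, and the Nsd1 peak was not the strongest promoter peak of Nsd1.

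**Figure D1:**
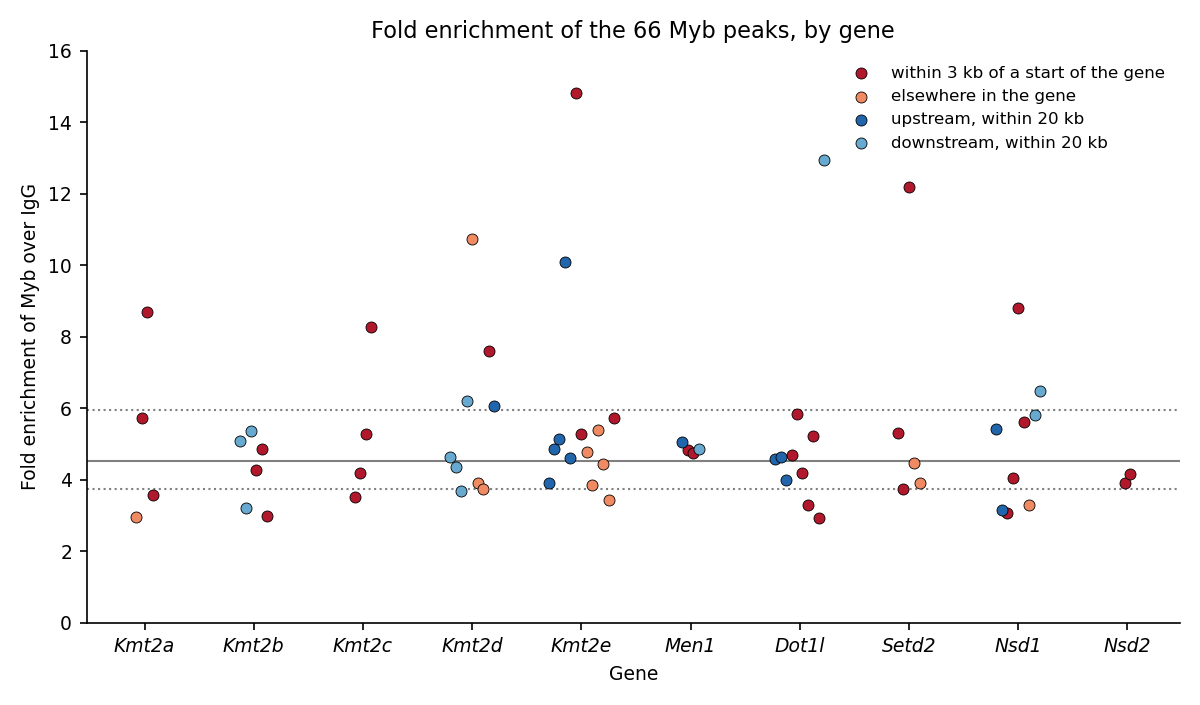
Each point is 1 of the 66 Myb peaks, plotted by gene on the x axis and by fold enrichment of Myb over IgG on the y axis, with color for the position of the summit. The solid line is the median of all 25793 peaks (4.51) and the dotted lines are their quartiles (3.73 and 5.95). The peaks of Kmt2b, Men1 and Nsd2 all sit below the upper dotted line.

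Fold enrichment is the authors' ratio of scaled Myb reads to the IgG background around the summit. Over the 66 peaks it ranged from 2.94 to 14.8 with a median of 4.73 (95% interval of the median, 4.27 to 5.14), and this interval holds the median of all peaks. Of the 66 peaks, 12 (18.2%) fell in the top 25% of the list. The q-value, the authors' adjusted p-value for a peak, was above 0.05 in 3 of the 66, 1 at Dot1l and 2 at Nsd1, and in 7.24% of all peaks. The reads behind each summit, worked out from its fold enrichment and its p-value, numbered 10 to 63 with a median of 19, and 38 of the 66 peaks rested on 20 reads or fewer. The intervals on reads given below are exact Poisson 95% intervals. Those on fold enrichment come from the same read intervals with the IgG background held fixed, so they cover the counting error of the Myb reads and not that of the background, and are narrower than the full counting error of the ratio. In a bulk sample, binding in more cells and more binding per cell cannot be told apart.

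Peaks were denser at these genes than over protein-coding genes. The windows of the 10 genes held 5.73 peaks per 100 kb, and the pooled windows of all protein-coding genes held 2.16. The members were also long, with a median length of 73.5 kb against 17.4 kb for protein-coding genes, and the part of length in the counts of peaks was not tested. Density ranged from 1.50 peaks per 100 kb at Kmt2c, the longest member at 227 kb, to 12.5 at Dot1l. Dot1l, Kmt2e and Kmt2d stood above 95% of protein-coding genes in density, at the percentiles 96.5, 95.9 and 95.4, while Kmt2c and Nsd2 stood near the middle at 50.8 and 53.5.

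Of the 66 peaks, 31 were promoter peaks of their own gene, 12 lay elsewhere in the gene, 12 lay upstream and 11 lay downstream. The first intron alone held 21. The nearest annotated start site was that of the member for 33 peaks. For the other 33 it belonged to another gene, protein-coding for 16 and non-coding or unprocessed for 17. Peaks were assigned by distance alone, and the list does not tell which gene a peak acts on.

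**Figure D2:**
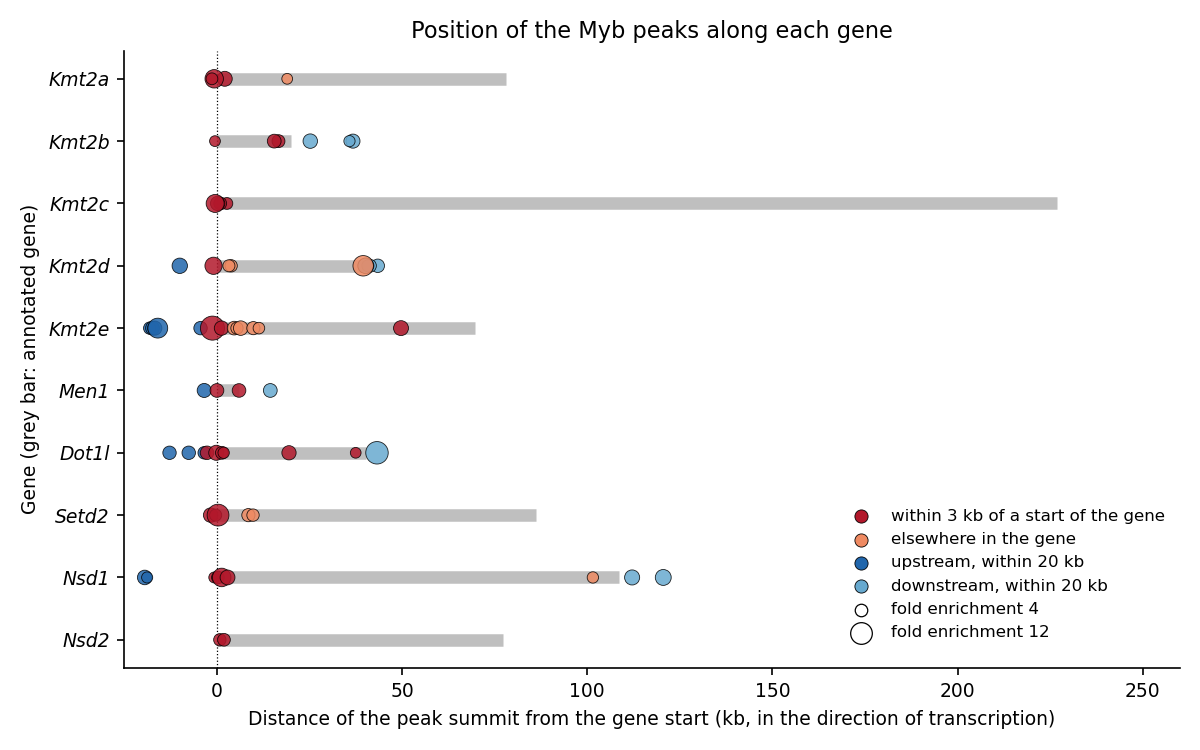
Position of each peak summit along its gene, in kb from the gene start in the direction of transcription, with 1 row per gene and a grey bar for the annotated gene. Point area is proportional to fold enrichment. Large points gather near 0, with the exceptions of the Kmt2e peak 15975 bp upstream and the peaks at the far ends of Kmt2d and Dot1l.

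Kmt2e had the most peaks, 13, and the highest promoter peak of the 10 genes. Kmt2e encodes a SET domain protein that reads methylated lysine 4 and is needed for normal hematopoietic stem cells, with little methyltransferase activity of its own. Its strongest peak (chr5:23430439-23434398) was 3960 bp wide, wider than 99.7% of all peaks, with its summit 1207 bp upstream of the gene start and 75 bp from the start of the lincRNA 5031425E22Rik. The fold enrichment was 14.8 (95% interval 11.5 to 18.9) from 63 reads (48.4 to 80.6). A second broad peak of 3725 bp reached from near the gene start into the first intron at a fold enrichment of 5.28 and 33 reads. These were the only 2 of the 66 peaks wider than 2 kb. Together with 4 more peaks separated by gaps of 1 kb or less they formed a domain of 6 peaks over 11.4 kb. The first intron held 6 of the 13 peaks, of which the 5 beyond the promoter had fold enrichments of 3.44 to 5.40.

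A group of 4 further peaks stood 15975 to 18154 bp upstream of Kmt2e, where the nearest annotated start site, again that of 5031425E22Rik, was 14843 bp or more away. The strongest (chr5:23418117-23419312) had a fold enrichment of 10.1 (7.36 to 13.5) from 42 reads, a GC content of 64.1% and an observed to expected CpG ratio of 0.94 within 150 bp of its summit. The other 3 had fold enrichments of 3.90, 4.85 and 5.14 and GC contents of 38.5% to 45.5%. The peak with 10.1 was thus richer in GC and CpG than the median promoter peak of the 10 genes (61.1% and 0.58). A further peak of Kmt2e lay 4428 bp upstream at 4.60, also nearest to 5031425E22Rik. The last lay in intron 12, 1351 bp from another annotated start of Kmt2e, at 5.72.

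Kmt2a, the gene broken in KMT2A-rearranged leukemia, had 4 peaks. The strongest (chr9:44881343-44882264) had its summit 737 bp upstream of the start, at a fold enrichment of 8.69 (6.05 to 12.1) from 32 reads, and 283 bp from the start of the antisense transcript AC061963.1. The peaks on each side, also nearest to AC061963.1, were lower, 5.72 in the first intron and 3.57 at 1347 bp upstream. The fourth, 19.0 kb inside the gene, in the first intron and nearest to the unprocessed transcript Gm48314, was at 2.97 from 18 reads. No peak was assigned to Kmt2a past its first intron.

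Kmt2c, which methylates lysine 4 at enhancers and in humans lies in the part of chromosome 7 often lost in myeloid disease, had 4 peaks, all within 3 kb of its start. Fold enrichment was highest upstream of the gene and lower further inside. It was 8.28 (5.74 to 11.6) from 31 reads at 484 bp upstream, next to the lincRNA 4831440E17Rik. It was 5.28 (3.19 to 8.33) in the first exon at 193 bp, 4.18 (2.49 to 6.68) at 886 bp and 3.53 (1.90 to 6.15) at 2693 bp inside the gene, from 16, 15 and 10 reads. All 4 intervals overlapped, and the decline was not tested. The rest of the 227 kb gene and 20 kb on either side held no further peak.

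Kmt2d, the paralog of Kmt2c and also an enhancer methyltransferase, had 9 peaks, and its strongest was not at its own promoter. That peak (chr15:98831320-98832949) lay at the far end of the gene, in exon 55, 188 bp from the start of Prkag1, a subunit of the AMP-activated kinase. It had a fold enrichment of 10.7 (7.73 to 14.5) from 39 reads. Another 4 peaks beyond the gene end had Prkag1 as the nearest start, with fold enrichments of 3.69 to 6.21. Kmt2d's single promoter peak, 919 bp upstream and nearest to the unprocessed transcript Gm49437, had 7.59 (5.16 to 10.8) from 28 reads. The remaining peaks were a pair in the first intron (3.73 and 3.90) and 1 at the start of Rhebl1, a Ras-like GTPase, at 6.06.

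Kmt2b, which methylates lysine 4 at promoters, had 6 peaks and no peak in the top 25% of the list. At its main start the peak was weak, 2.99 (1.93 to 4.44) at 525 bp upstream, near the microRNA gene Mir3569. Its strongest promoter peak lay 15.5 kb inside the gene, 920 bp from another annotated start of Kmt2b, with a fold enrichment of 4.87 (3.56 to 6.51). That summit rested on 43 reads, more than the 32 at Kmt2a, over an IgG background of 6 reads against 1.95 at Kmt2a. A second internal peak had 4.27. Downstream, peaks lay at the small heat shock gene Hspb6 (5.07), at the predicted microRNA gene Gm38670 (3.22) and at Psenen (5.35).

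Men1 encodes Menin, the scaffold that tethers Kmt2a and Kmt2b to chromatin. Its 4 peaks differed little, from 4.76 to 5.06. The promoter peak (chr19:6334372-6335176) had its summit 5 bp inside the gene, with a fold enrichment of 4.84 (3.0 to 7.46) from 18 reads. A second lay 1097 bp from another annotated start of Men1 and 191 bp from the start of Map4k2, a kinase gene, at 4.76. The others lay upstream at the processed pseudogene AC127556.2 (5.06) and downstream toward Map4k2 (4.87).

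Dot1l, the lysine 79 methyltransferase, had 10 peaks, of which 6 were promoter peaks of its several annotated starts. The peak at the main start (chr10:80754418-80755397) had its summit 182 bp upstream, with a fold enrichment of 5.83 (3.99 to 8.26) from 29 reads. The other promoter peaks ranged from 2.94 to 5.22. Its strongest peak by the 20 kb rule, 12.9 (9.67 to 17.0) from 49 reads, lay downstream, 32 bp from the start of Plekhj1. That summit was 43.2 kb from the Dot1l start, so the highest value assigned to Dot1l belonged by distance to a neighbor. Upstream, peaks at 4.59 and 4.64 were nearest to Ap3d1, a subunit of the adaptor complex AP-3, and 1 at 3.98 was nearest to Dot1l.

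Setd2, which trimethylates lysine 36 and loses function in leukemia, had the second highest promoter peak. The peak (chr9:110532545-110533694) had its summit 300 bp inside the gene, in the first intron, at a fold enrichment of 12.2 (9.05 to 16.1) from 47 reads. The peaks upstream of the start were lower, 3.74 at 340 bp and 5.31 at 1709 bp. A pair further into the first intron, nearest to the unprocessed transcript Gm42763, had 3.92 and 4.47.

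Nsd1 and Nsd2, paralogs that place the lower methylation states of lysine 36, differed in their values. Nsd1 had 9 peaks and Nsd2 had 2. The strongest Nsd1 peak (chr13:55210745-55211568) had a fold enrichment of 8.80 (6.16 to 12.2) from 33 reads, 1284 bp inside the gene and 331 bp from the nearest of its starts. Peaks at 5.63 and 4.06 stood near other starts of Nsd1. Nsd2, overexpressed in myeloma through a translocation, had 4.15 (2.34 to 6.95) from 12 reads and 3.92 from 14 reads, both within 2 kb of its start. The intervals of the strongest Nsd1 and Nsd2 peaks overlapped, and the difference itself was not tested. The other Nsd1 peaks lay 18.8 and 19.5 kb upstream (3.15 and 5.43), in intron 22 and nearest to Prelid1 (3.30), and downstream at the starts of Rab24, a small GTPase (5.81), and of Mxd3, a Max-binding repressor (6.49).

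Ordered by the strongest promoter peak, fold enrichment was 14.8 at Kmt2e, 12.2 at Setd2, 8.80 at Nsd1, 8.69 at Kmt2a, 8.28 at Kmt2c, 7.59 at Kmt2d, 5.83 at Dot1l, 4.87 at Kmt2b, 4.84 at Men1 and 4.15 at Nsd2. None of the 9 neighboring pairs in this order had intervals that stood apart, which does not show that neighbors were alike. Among all 45 pairs, 9 did, with the IgG background held fixed: Kmt2e stood above Kmt2d, Dot1l, Kmt2b, Men1 and Nsd2, and Setd2 stood above the last 4 of these. Ordered by the q-value instead, Kmt2b and Dot1l changed places and the others did not. In 6 of the 10 genes a promoter peak was in the top 25% of the list, against 15.1% of protein-coding genes. The base of that share includes the genes with no promoter peak. Of the 21938 protein-coding genes 8758 had a promoter peak, and 3317 had one in the top 25%. The median strongest promoter peak was 7.94 for the 10 genes, and 5.25 for the protein-coding genes that had one. Both values take the highest promoter peak of each gene, and the part of the number of peaks or starts per gene was not tested. Over all 31 promoter peaks of the 10 genes the median was 4.84 (4.15 to 5.63). This interval holds the 4.54 of all peaks at any promoter.

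**Figure D3:**
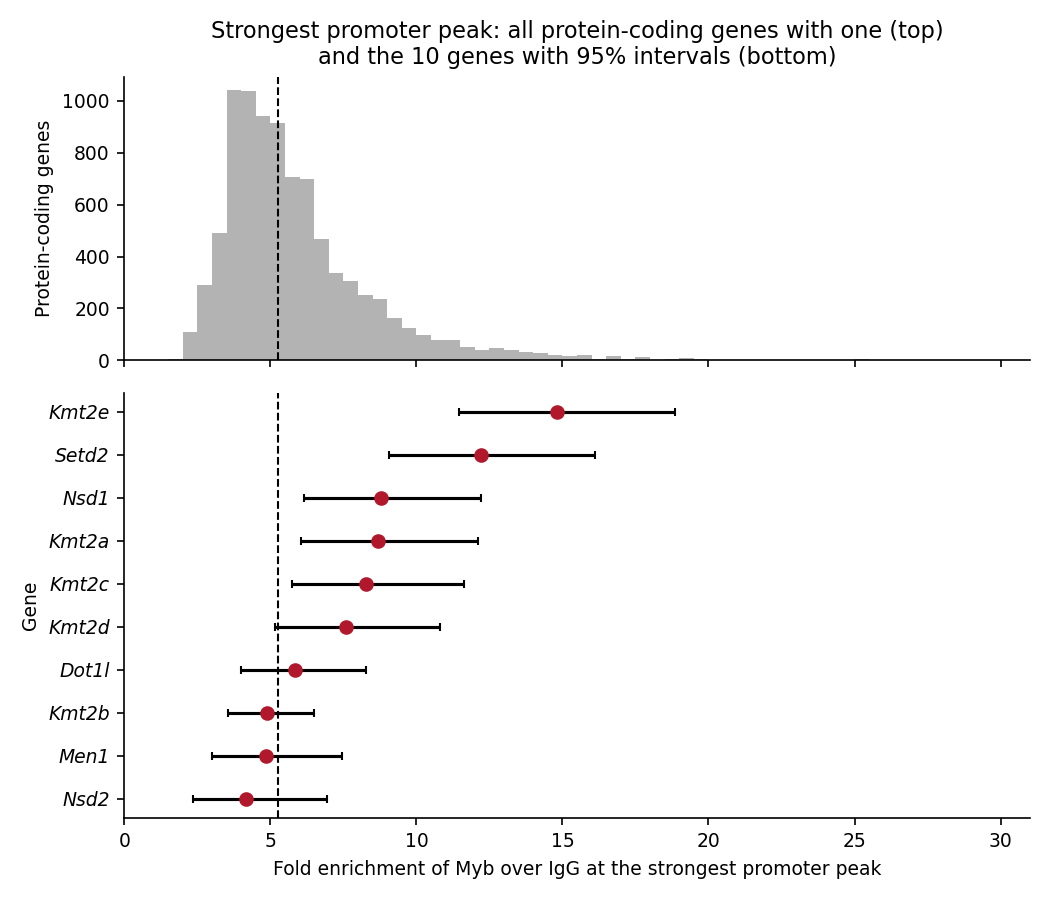
Top, histogram of the fold enrichment of the strongest promoter peak over protein-coding genes with a promoter peak. Bottom, the same value for each of the 10 genes (points) with its 95% interval from the Poisson error of the Myb reads (bars), and the dashed line is the protein-coding median of 5.25. The bars of Kmt2e, Setd2, Nsd1, Kmt2a and Kmt2c lie to the right of the line, and those of the remaining 5 cross it.

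The strongest promoter peak lay upstream of the annotated gene start in 5 genes (Kmt2a, Kmt2c, Kmt2d, Kmt2e and Dot1l) and inside the gene in the other 5. In Kmt2a, Kmt2c, Kmt2d and Kmt2e, the nearest start to that summit was of a non-coding or unprocessed transcript and not of the Kmt2 gene. The count of promoter peaks fell with a narrower window. Within 1 kb of a start 9 of the 10 genes kept a promoter peak, all but Kmt2e, against 35.8% of protein-coding genes. Within 500 bp 5 did, against 31.8%, and Kmt2a, Kmt2b, Kmt2d, Kmt2e and Nsd2 did not.

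Within 50 bp of the summit, the Myb motif was less common at these genes than in the list. It lay within 50 bp of the summit in 3 of 66 peaks, or 4.55% (exact 95% interval 0.947% to 12.7%), and in 16.7% of all peaks. In windows of the same size 500 bp to either side, the share was 15.2% at these genes and 10.5% over the list, so at these genes the flanks held the motif more often than the summits. Many of the 66 peaks were at promoters of some gene (72.7%, against 57.6% of the list), and so the share was also taken by class. At promoters it was 4.17% of 48 peaks (0.509% to 14.3%) against 14.7% of all promoter peaks. Away from promoters it was 5.56% of 18 peaks (0.141% to 27.3%) against 19.4%, and this interval holds the value of the list. Among peaks in the top 25% of the CpG ratio it was 5% of 20 peaks (0.127% to 24.9%) against 11.4%, and below it 4.35% of 46 peaks (0.531% to 14.8%) against 18.4%. Of the 10 genes, 1 (Nsd1) had the motif at the summit of a promoter peak, against 9.08% of protein-coding genes.

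With looser definitions the share rose at these genes and in the list alike. It was 21.2% against 29.7% with the fifth letter of the motif left free, and 47.0% against 54.3% for AACNG. No interval was taken for these looser letters, so whether the lower share holds beyond the strict motif was not tested. It was 15.2% against 30.0% within 100 bp, and 45.5% (33.1% to 58.2%) against 58.6% anywhere in the peak. The whole peaks held 1.11 motifs per kb at these genes and 1.48 over the list. Neighboring peaks share a gene and are not independent, which these intervals do not cover.

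Motifs of other blood factors were counted in the same windows. The ETS letters were the most common, in 31.8% of the 66 peaks against 33.5% of all peaks. GATA letters (AGATAA or TGATAA) were in 2 peaks, 1 at Kmt2d and 1 at Kmt2e, or 3.03% (0.369% to 10.5%) against 13.8%. RUNX letters (TGCGGT or TGTGGT) were in 10.6% against 12.2%, and C/EBP letters (TTGCNNAA) in 6.06% against 6.16%. SP/KLF letters were in 13.6% (6.43% to 24.3%) against 7.15%, and NFY letters (CCAAT) in 10.6% against 11.1%. For the ETS, RUNX, C/EBP, SP/KLF and NFY letters the interval at the 10 genes held the share of the list, and for Myb and GATA it lay below. A match is a run of letters and does not show that a factor was bound.

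**Figure D4:**
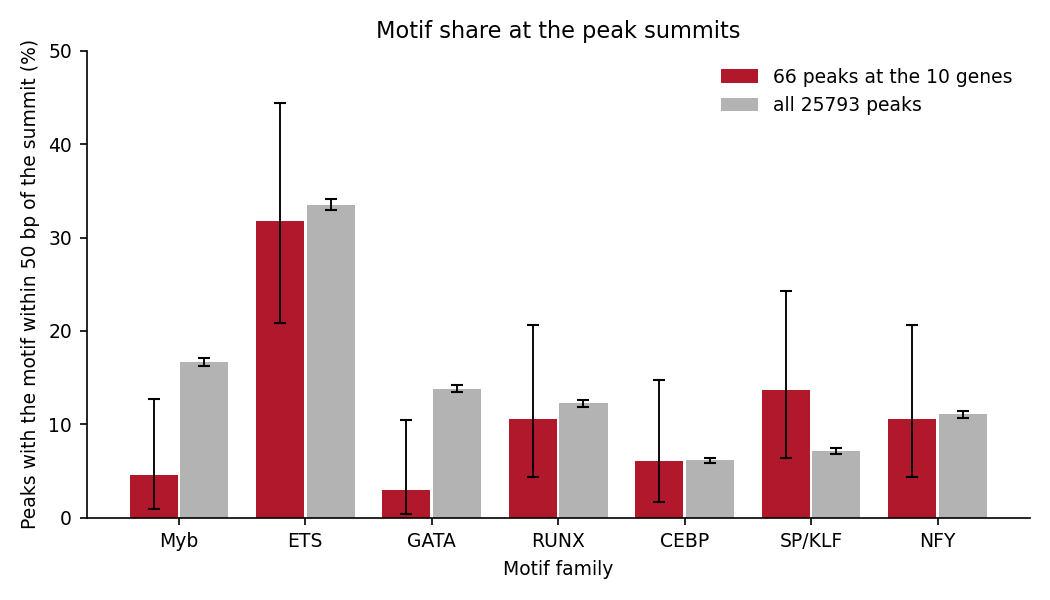
Share of peaks (%) with each motif within 50 bp of the summit, for the 66 peaks at the 10 genes (red) and all 25793 peaks (grey), with exact 95% intervals as bars. The red bars for Myb (4.55%) and GATA (3.03%) stand below the grey bars (16.7% and 13.8%), and the other red intervals include the grey values.

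Base composition differed by position. Around the summits of promoter peaks of the 10 genes the median GC content was 61.1% and the median CpG ratio 0.58. Around their other peaks the medians were 45.8% and 0.36, and over the list 48.2% and 0.33. RefSeq promoters (GRCm38.p6, 250 bases before to 50 after the start) were matched for 6 genes: Kmt2a, Kmt2c, Kmt2d, Men1, Dot1l and Setd2. None held the Myb motif, which 28.2% of the 27025 promoters in the table hold. With only 6 genes this says little. Kmt2b, Kmt2e, Nsd2 and Nsd1, the gene with the motif at a promoter summit, were not matched. The SP/KLF letters were in all 6, from 1 copy at Men1 to 12 at Kmt2c, and in 35.9% of all promoters. The ETS letters were in 1 (Dot1l) and in 64.7% of all promoters.

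Genes that work with these 10, in 5 lists with 52 genes in all, also had promoter peaks in most cases: 49 had one, against the 39.9% above. Of the 49, 28 had one in the top 25% of the list, as did 3317 of the 8758 protein-coding genes with a promoter peak. Among the subunits and partners of the Kmt2 complexes and Menin, 14 of 15 had a promoter peak, with the highest at the paralog Setd1b (13.2), the core subunit Rbbp5 (10.3) and Psip1 (9.11), which links Menin to chromatin. Ncoa6, named after its values were seen, had 2 peaks within 20 kb but no promoter peak. Among partners of Dot1l and of Kmt2a fusions, 9 of 10 did, led by Mllt10 (14.8), Mllt3 (12.9) and Aff1 (8.18), while Mllt1 had no peak within 20 kb. Among other methyltransferases, 10 of 11 did, led by Nsd3 (10.4), Ash1l (9.13) and Kmt5a (8.31), and Smyd2 had no peak within 20 kb. The lysine demethylases all had one, 8 of 8, led by Kdm5a (11.2), Kdm5b (8.53) and Kdm5c (8.12). Known targets of Kmt2a fusion proteins also all had one, 8 of 8, led by Cdk6 (8.28), Mecom (7.26) and Meis1 (6.69), though Hoxa7, Hoxa9 and Hoxa10 are neighbors and share peaks.

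**Figure D5:**
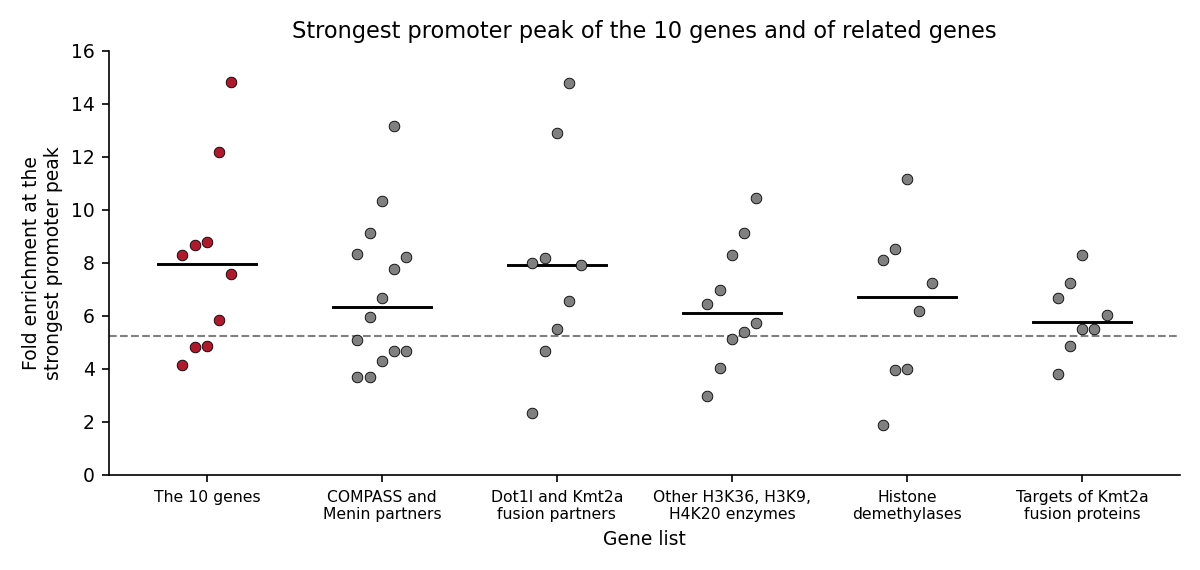
Fold enrichment of the strongest promoter peak (y axis) for the 10 genes (red) and for 5 lists of related genes (grey), 1 point per gene, with the median of each list as a black bar. Genes without a promoter peak are left out, and the dashed line is the median of protein-coding genes with one (5.25). The medians run from 5.76 for targets of Kmt2a fusion proteins to 7.94 for the 10 genes.

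As a check of the labelled cell type, peaks were counted within 3 kb of genes of progenitors and of other tissues. Kit had 2, Cd34 1, Myb 14 and Gata2 7. Alb, Ins2 and Myh6, genes of liver, pancreas and heart, had 0. Even by the wider 20 kb rule only 58.6% of protein-coding genes had a peak. A count of 0 was therefore common, and at these genes it says little of the cell type. A peak list holds no expression values, so this check bears on binding alone.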

How the data were processed

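ChIP-Seq of Myb and of an IgG control was performed in WT Lin- bone marrow cells (1 library each), with adapters inserted by Tn5 on the beads and 12 PCR cycles. Per the study's methods and the submitters' processing notes, the authors trimmed reads (Cutadapt 1.15), aligned them to mm10 (BWA 0.7.13), removed duplicates (Picard) and called narrow peaks with MACS2 2.1.1.20160309 against IgG. Peaks were kept by overlap between pseudo-replicates, random parts of 1 library, which say nothing of biological spread. The deposited fold enrichment is a ratio of Myb pileup to local IgG background. The deposited p-values and q-values are −log10 values, and the deposited score restates the p-value and was not used. No column of another sample was left out (0).

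Summits were assigned to GENCODE vM21 genes by the 20 kb rule and to promoters within 3 kb of any annotated start. Whole reads behind a summit were recovered from the fold enrichment (pileup + 1 over background + 1) and the p-value. A pileup scale of 0.769 gave whole reads, within 0.002, in 100% of rows, with more than 1 solution in 1.38%. Motifs were counted on both strands within 50 bp of summits, and GC content and CpG ratio within 150 bp. Medians have order-statistic 95% intervals and shares have Clopper-Pearson 95% intervals. Library totals are not in the peak list, so sequencing depth is unknown. Python 3.11.15, NumPy 2.4.6, pandas 2.3.3, SciPy 1.17.1 and pysam 0.24.0 were used, and the steps were tested on simulated data. No test was run, since each group was 1 library and peaks are not replicates.

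The text names all 10 genes with their peaks, the gene of the nearest start for each peak assigned to another gene, and, of each related list, the 3 genes with the highest promoter peak and those with no peak. The members and lists were chosen with earlier results of these data known. Alternatives covered the assignment window, the promoter window, protein-coding starts, q-value limits and the form and window of the motif.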

Additional observations from a re-analysis of the deposited data

How the results depend on the processing

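Each choice was changed in turn. All 10 genes kept a peak with the gene body alone, with windows of 3 kb and 50 kb, with any base of a peak deciding and at a q-value of at most 0.05, and 9 did when the nearest start had to be that of the member (all but Kmt2a) or with −log10 q limited to 5 and above (all but Nsd2). The share of protein-coding genes with a peak was taken for the 20 kb rule alone (58.6%), so these counts have no matching share beside them. The number of peaks moved from 66 to 31 with the gene body alone, 103 with 50 kb, 34 with the nearest start and 30 under that q limit, where the median fold enrichment was 5.72. The 5 genes with a promoter peak within 500 bp are the lowest count, and the q limit left 8, without Men1 and Nsd2, against 24.3% of protein-coding genes. The related genes with a promoter peak ranged from 37 of 52 under that q limit, against 24.3% of protein-coding genes, to 49 in the main setting, against 39.9%. The share with the Myb motif was 0% with the gene body alone (0 of 31 peaks). If a count of 0 allows up to 3, a rough bound and not a Clopper-Pearson interval, the share could reach 9.68%. The matching share over all peaks in gene bodies is not given here. With other forms of the motif the share was 21.2% (list 29.7%) when the fifth letter was left free and 47.0% (54.3%) for AACNG. With other windows it was 15.2% (30.0%) within 100 bp and 3.03% (8.68%) within 25 bp. In an alternative chosen after seeing the data, it was 45.5% (58.6%) anywhere in the peak. Apart from the last and the 3.03%, these shares carry no interval, and their difference from the list was not tested. The 3.03% for the Myb motif within 25 bp is the same share of 66 peaks as that of the GATA letters within 50 bp. Its exact interval is therefore the same, 0.369% to 10.5%. For the Myb motif within 25 bp this interval holds the 8.68% of the list. No paired analysis was possible because each group was 1 library. The summits of the 66 peaks rest on 10 to 63 reads, and the background error is in none of the intervals on fold enrichment.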
